A study of Mus musculus with 10 samples.

Results

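The transforming growth factor beta (TGF-beta) pathway was followed through 9 genes: the ligands Tgfb1, Tgfb2 and Tgfb3, the receptors Tgfbr1 and Tgfbr2, the signal transducer Smad3, the inhibitor Smad7, and the target genes Ccn2 and Tgfbi. They were taken by gene symbol from a deposited table of 29657 genes, and 9 of 9 were found, with 1 entry each. Values are FPKM, fragment counts scaled to transcript length and to the total of mapped fragments, from 10 liver RNA libraries of C57BL/6 mice, 5 in each group. Every mouse ate CDAHFD, a high-fat diet that lacks choline and has defined L-amino acids, over 8 weeks. It is used to bring about fatty liver with inflammation and scarring. The control group, of genotype WT, received AAV8-NC, a negative control virus, by vein. The other group received AAV8-TBG-galectin-3 and carries the label of a hepatocyte galectin-3 knockdown. TBG is a promoter active in hepatocytes, the insert of the vector is not described in the labels, and age and sex are not given there.

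TGF-beta ligands are secreted in a latent form and are held in the matrix until they are released. An active ligand binds the type II receptor, which recruits and phosphorylates the type I receptor, and this in turn phosphorylates Smad2 and Smad3, which enter the nucleus with Smad4. In injured liver the ligands come mainly from macrophages, stellate cells and platelets, and the pathway is known for turning stellate cells into matrix-producing myofibroblasts.

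The liver label was borne out by the hepatocyte markers, with Alb at a mean of 28430 FPKM in the control group. Lgals3, the gene named in the knockdown label, averaged 70.8 ± 22.9 FPKM in the control group and 74.2 ± 20.1 FPKM in the other (SD, n = 5 each, limma adjusted p = 0.856), so the group is called labelled knockdown here and each direction rests on the labels. Between 21653 and 23079 genes were above 0 per library. Genes were tested with limma on log2(FPKM + 1) where at least 5 libraries reached 0.5 FPKM, which left 13471 genes and 8 of the 9 pathway genes. Tgfb2 was under that minimum. The labels number the replicates and do not say how many mice went into each, so p-values measure only the spread between these 10 libraries.

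At an adjusted p under 0.05, 2 of the 8 tested pathway genes were lower in the labelled knockdown group, Tgfb1 and Tgfbr2, and 0 were higher. Over all tested genes, 9.65% were called lower and 7.13% higher. The log2 fold change was negative for 7 of the 8, with Ccn2 above 0, against 55.6% of all tested genes. The median log2 fold change was -0.33 over the 8 genes and -0.04 over all 13471. In bulk tissue, fewer cells of a type and less RNA per cell cannot be told apart. In the authors' deposited table, from the same libraries, 2 of the 9 genes had a q-value under 0.05. These were Tgfb1 (0.0220) and Tgfbr2 (0.0108), where 8.84% of all genes in the authors' deposited table had such a q-value. The significance mark in that table was no for each of the 9 genes.

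In control livers, levels per length were highest for Tgfbi, at 25.8 ± 2.27 FPKM. Tgfbr1 (7.63 ± 0.936 FPKM), Ccn2 (6.93 ± 1.91), Smad3 (4.44 ± 0.713), Tgfbr2 (3.63 ± 0.647), Smad7 (3.32 ± 1.04) and Tgfb1 (3.20 ± 0.302) followed in level (SD, n = 5). Neighbours in this run overlapped in their library values. Tgfb3 (1.16 ± 0.511 FPKM) and Tgfb2 (0.461 ± 0.166) were lowest and overlapped each other. Tgfbi lay above the other genes in every control library, and Tgfb3 lay below Tgfb1 in every one.

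**Figure D1:**
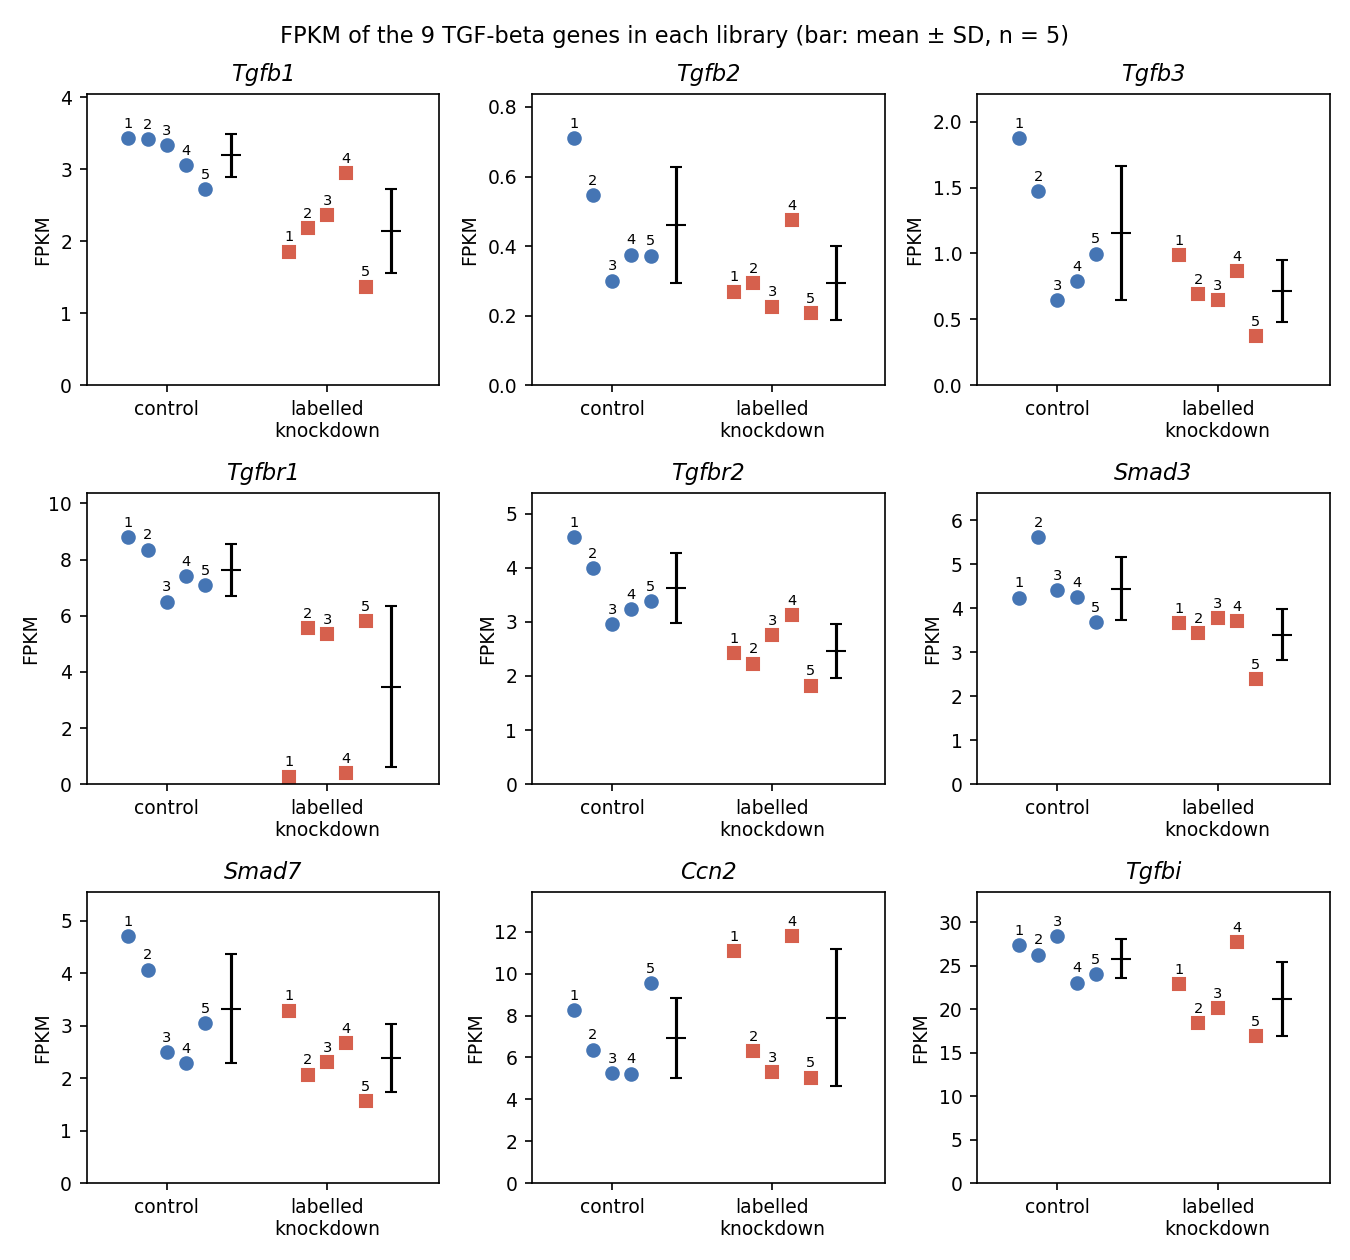
FPKM of each of the 9 genes (vertical axes, linear from 0) in the 5 control (circles) and 5 labelled knockdown libraries (squares), numbered by replicate, with mean ± SD (n = 5). Tgfbr1 stood at 0.267 and 0.392 FPKM in labelled knockdown 1 and 4, and Ccn2 was highest in the same libraries.

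Among the ligands, Tgfb1, the main profibrotic ligand and the highest of the 3 ligands per length, fell. The control libraries 1 to 5 held 3.43, 3.42, 3.34, 3.06 and 2.73 FPKM of Tgfb1, and libraries 1 to 5 of the labelled knockdown group 1.86, 2.18, 2.36, 2.94 and 1.37 FPKM. The groups overlapped only through labelled knockdown 4, which lay above control 5, and the other 4 labelled knockdown libraries lay below every control library. The mean went from 3.20 ± 0.302 to 2.14 ± 0.585 FPKM, a ratio of 0.670, with a log2 fold change of -0.43 (SE 0.12, limma adjusted p = 0.0353, exact two-sided permutation p = 0.0159). The call depended on the set of libraries. It held without control 5 (adjusted p = 0.0335) and without labelled knockdown 4 (0.0126), and without each of the other 8 libraries the adjusted p lay between 0.0521 and 0.0785. With no filter on low genes it was 0.0880.

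Tgfb3, a ligand known from mesenchymal cells, was at 1.88, 1.48, 0.645, 0.787 and 0.9996 FPKM in control libraries 1 to 5. It was at 0.988, 0.689, 0.645, 0.866 and 0.374 FPKM in labelled knockdown libraries 1 to 5. Controls 1 and 2 lay well above every labelled knockdown library and control 5 just above the highest, while controls 3 and 4 were mixed among them. The log2 fold change of -0.31 did not pass the test (SE 0.16, limma adjusted p = 0.186), and its 95% interval ran from 0.635-fold to 1.02-fold. Tgfb2, the third isoform, was measured at 0.301 to 0.711 FPKM in the control group (median 0.375) and at 0.207 to 0.474 FPKM in the labelled knockdown group (median 0.269). The ratio of its group means was 0.638, its groups overlapped, and at this level it was not tested.

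Of the receptors, Tgfbr2, the type II receptor that binds the ligand first, fell. Control libraries 1 to 5 held 4.57, 3.99, 2.96, 3.24 and 3.39 FPKM of Tgfbr2, and those of the labelled knockdown group 2.43, 2.22, 2.76, 3.12 and 1.82 FPKM. As for Tgfb1, labelled knockdown 4 was the library that reached into the control range, here above control 3. The mean went from 3.63 ± 0.647 to 2.47 ± 0.498 FPKM, a ratio of 0.680, with a log2 fold change of -0.42 (SE 0.12, limma adjusted p = 0.0374, exact two-sided permutation p = 0.0159). The call stayed in 3 of the 10 fits that leave 1 library out, those without control 3 or 5 or labelled knockdown 4, and the adjusted p was 0.0532 to 0.0867 in the other 7. It was also lost once the trend with transcript length in each library was taken out (log2 fold change -0.30, adjusted p = 0.0733) and with no filter on low genes (0.0916).

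Promoter sequence is given for Tgfb1 and Tgfbr2 because they are the called pathway genes. The 250 bases before each start site were copied from RefSeq, build GRCm38.p6, where 6 of the 9 genes have an entry, and run 5′ to 3′ on the gene's strand. That for Tgfb1 lies at chr7:25686752-25687001 on the plus strand and that for Tgfbr2 at chr9:116175364-116175613 on the minus strand. Capitals mark matches, on either strand, to the Smad box CAGAC, the GC box GGGCGG bound by Sp1-type factors, and the AP-1 site TGACTCA.
Tgfb1: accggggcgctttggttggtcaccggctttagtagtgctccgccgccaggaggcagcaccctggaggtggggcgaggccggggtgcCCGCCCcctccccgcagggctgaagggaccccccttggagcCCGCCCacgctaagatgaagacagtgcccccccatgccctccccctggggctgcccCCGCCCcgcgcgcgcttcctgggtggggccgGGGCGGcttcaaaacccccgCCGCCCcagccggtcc
Tgfbr2: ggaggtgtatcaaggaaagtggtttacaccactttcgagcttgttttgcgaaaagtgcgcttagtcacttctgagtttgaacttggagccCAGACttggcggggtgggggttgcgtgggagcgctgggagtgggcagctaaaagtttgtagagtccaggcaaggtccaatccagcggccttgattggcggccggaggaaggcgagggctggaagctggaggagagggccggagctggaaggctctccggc
The Tgfb1 window held 5 GC boxes, 0 Smad boxes and 0 AP-1 sites, with 75.2% G and C. The Tgfbr2 window held 1 Smad box, 160 bases before the start, with 0 GC boxes, 0 AP-1 sites and 58.4% G and C. Matches to different motifs did not overlap. Of 32851 promoter windows of the same length, 32.7% held a GC box, 42.2% a Smad box and 4.46% an AP-1 site, and the median share of G and C was 52.4%.

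Tgfbr1, the type I receptor kinase that passes the signal to the Smads, was split within the labelled knockdown group. Control libraries 1 to 5 held 8.81, 8.35, 6.51, 7.40 and 7.10 FPKM of Tgfbr1. Labelled knockdown libraries 2, 3 and 5 held 5.56, 5.34 and 5.81 FPKM, while libraries 1 and 4 held 0.267 and 0.392 FPKM. Each of the 5 labelled knockdown libraries lay below each control library. That lack of overlap was found for 1 of the 8 tested pathway genes and for 7.48% of all tested genes. The limma test did not call Tgfbr1 (log2 fold change -1.31, SE 0.48, adjusted p = 0.0801), and the spread within the labelled knockdown group was wide (3.47 ± 2.87 FPKM, against 7.63 ± 0.936 in the control group). The exact two-sided permutation p was 0.00794, the smallest possible with 5 against 5. In the authors' deposited table its q-value was 0.605.

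Drops of this size were rare. Of 5786 tested genes with a median of at least 5 FPKM, 24 had any library more than 10 times under the gene's median. Of these, 18 were low in control 5, namely Mup genes, Slco1a1, Cyp2c54 and Thrsp, which fell together in that library. Mup7, for example, was at 0.339 FPKM in control 5 and at 61.8 to 396 FPKM in the other libraries. Exactly 2 libraries were that far down for 3 of the 5786 genes. Tgfbr1 was the 1 gene for which these were labelled knockdown 1 and 4. That pair was taken from the Tgfbr1 values themselves, so this count is a description only. The deposited table lists 4 transcripts for Tgfbr1, and its value by transcript was not analysed here, so the part of transcript assignment in the drop was not tested.

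**Figure D2:**
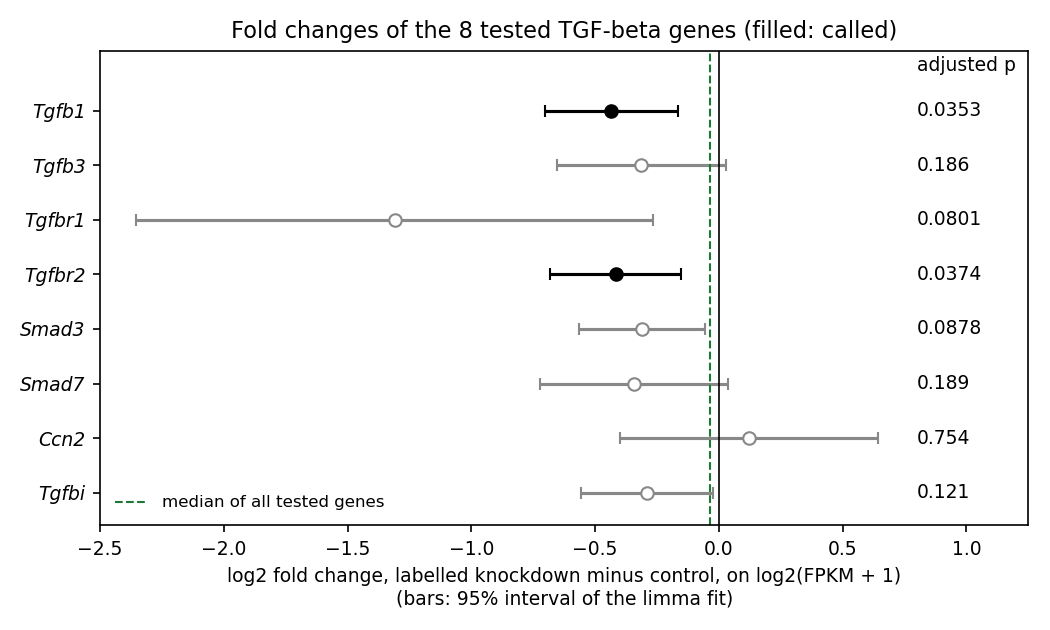
Log2 fold change (horizontal axis, labelled knockdown minus control, on log2(FPKM + 1)) of the 8 tested genes with the 95% interval of the limma fit, from 5 libraries a group. Filled points are called, and the dashed line is the median of all tested genes, -0.04. The intervals of Tgfb3, Smad7 and Ccn2 include 0, and that of Tgfbr1 is the widest, from -2.36 to -0.27.

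Smad3, which carries the signal to the nucleus, was at 4.24, 5.61, 4.41, 4.24 and 3.68 FPKM in control libraries 1 to 5 and at 3.66, 3.43, 3.78, 3.71 and 2.38 FPKM in labelled knockdown libraries 1 to 5. Control 5 lay among the labelled knockdown libraries, the other controls lay above them, and labelled knockdown 5 was low. Smad3 missed the threshold, with a log2 fold change of -0.31 (SE 0.12, limma adjusted p = 0.0878, exact two-sided permutation p = 0.0238). Its 95% interval ran from 0.676-fold to 0.963-fold.

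Smad7, which blocks the type I receptor and is itself switched on by the pathway, was at 4.71, 4.06, 2.50, 2.28 and 3.05 FPKM in control libraries 1 to 5. Their labelled knockdown counterparts held 3.29, 2.07, 2.31, 2.67 and 1.56 FPKM. Controls 1 and 2 were above every labelled knockdown library and controls 3 to 5 were not. The log2 fold change of -0.34 did not pass (SE 0.17, limma adjusted p = 0.189), and its 95% interval ran from 0.606-fold to 1.03-fold.

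Neither target gene passed the test, and their fold changes had opposite signs. Tgfbi, a matrix protein that binds collagens and integrins, was at 27.4, 26.3, 28.4, 23.0 and 24.0 FPKM in control libraries 1 to 5 and at 22.8, 18.4, 20.1, 27.7 and 16.9 FPKM in labelled knockdown libraries 1 to 5. Labelled knockdown 4 lay inside the control range and the other 4 lay below it. The log2 fold change was -0.29 (SE 0.12, limma adjusted p = 0.121, 95% interval 0.680-fold to 0.985-fold), and without labelled knockdown 4 it was -0.39 and past the threshold (adjusted p = 0.0253).

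Ccn2, formerly called connective tissue growth factor, was at 8.25, 6.37, 5.26, 5.22 and 9.55 FPKM in control libraries 1 to 5. Their labelled knockdown counterparts held 11.1, 6.30, 5.28, 11.8 and 5.03 FPKM. Libraries 1 and 4 of that group were above every control library, and library 5 was below every one. The log2 fold change of 0.12 was smaller than its error (SE 0.24, limma adjusted p = 0.754), its 95% interval ran from 0.758-fold to 1.56-fold, and its sign turned without labelled knockdown 1 (-0.0074) or 4 (-0.03). The ratio of Ccn2 group means in the authors' deposited table was 1.14, and its q-value there 0.805.

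Across the 9 genes the libraries kept a pattern of their own. Labelled knockdown 5 was the lowest of its group for 8 of the 9 genes, Tgfbr1 being the exception, where it was the highest. That library also had the fewest genes above 0 of all libraries, at 21653, and the part of this in its low values was not tested. Labelled knockdown 4 was the highest of its group for Tgfb1, Tgfb2, Tgfbr2, Ccn2 and Tgfbi. Control 1 was the highest control for 6 genes, namely the 3 ligands, both receptors and Smad7. With Tgfbr1 set aside, the mean log2(FPKM + 1) of the other 7 tested genes was 2.32 to 2.73 in control libraries and 1.87 to 2.51 in labelled knockdown libraries, so the groups overlapped.

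**Figure D3:**
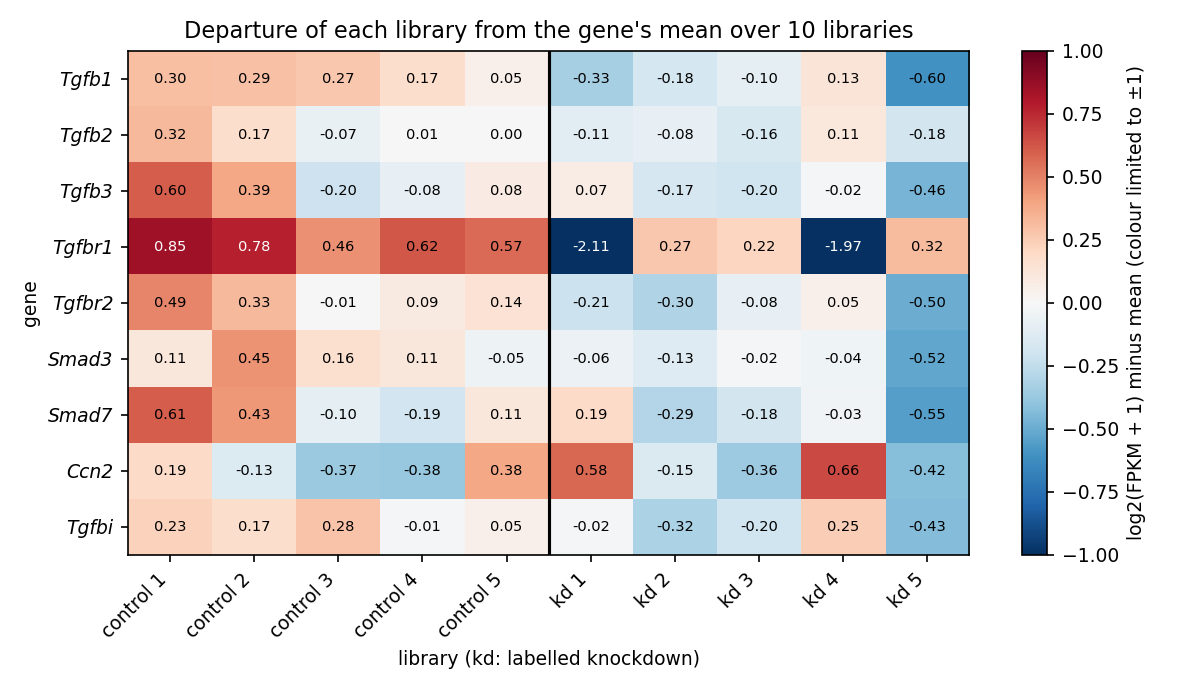
Departure of each library (columns) from the gene's mean over the 10 libraries (rows, the 9 genes), as log2(FPKM + 1), with colour limited to 1 either way. Labelled knockdown 5 is lowest of its group in all rows but Tgfbr1, and the Ccn2 row is highest in labelled knockdown 1 and 4, where Tgfbr1 is lowest.

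Cell type markers moved with some of these values, and their part in the results was not tested. Over all tested genes, 9.65% were called lower, 7.13% were called higher and 55.6% had a log2 fold change below 0. Of the stellate cell and myofibroblast markers, 4 of 12 tested were lower (Reln, Lum, Col1a1 and Ngfr) and 0 higher. Their log2 fold change was below 0 for 10 of the 12, with Des (0.08) and Hand2 (0.26) above 0. Lrat (-0.13) and Dcn (-0.09) were among those not called. Summed FPKM of this list was 99.99 to 122 in control libraries and 64.3 to 120 in labelled knockdown libraries. Of the Kupffer cell and macrophage markers, 2 of 11 were lower (Adgre1 and Cd5l) and 0 higher. Their sums were 533 to 885 FPKM in control and 375 to 708 FPKM in labelled knockdown libraries. Lyz2 made up much of these sums, with means of 420 of 756 FPKM in control and 271 of 518 FPKM in labelled knockdown libraries. The log2 fold change was below 0 for 10 of the 11. Marco was the exception (0.70, limma adjusted p = 0.41), and Clec4f was not called (-0.26, 0.62). Both were highest of their group in labelled knockdown 5. In the stellate cell and macrophage lists, labelled knockdown 5 had the lowest sum of its group and labelled knockdown 4 the highest. Labelled knockdown 5 was also lowest for the cholangiocyte, platelet, neutrophil and B and plasma cell lists. It was the highest of its group for the hepatocyte and sinusoidal endothelium lists. Sinusoidal endothelium gave 1 of 10 lower (Pecam1), near the share over all tested genes, with sums of 20.6 to 37.3 and 18.1 to 25.8 FPKM. Cholangiocyte markers gave 0 of 5 called, with sums of 126 to 365 and 41.7 to 297 FPKM. Most of these sums was Spp1, at 118 to 340 FPKM in control and 39.0 to 280 FPKM in labelled knockdown libraries. Of 8 hepatocyte markers, Cps1 and Hnf4a were lower and Ttr higher, with sums of 37600 to 42200 and 33640 to 43030 FPKM. Marker calls differed in how they held when 1 library was left out. Those of Reln, Adgre1, Cd5l, Cps1 and Hnf4a held in 10 of 10 such fits. The calls of Lum and Ttr held in 4, and those of Col1a1, Ngfr and Pecam1 in 2.

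Markers of platelets, a rich store of TGF-beta, were low, with summed FPKM of 3.52 to 5.57 in control and 2.77 to 6.58 in labelled knockdown libraries and 0 of 2 tested called. T and NK cell markers (3.63 to 5.96 against 2.09 to 7.05 FPKM) and neutrophil markers (4.09 to 8.93 against 5.34 to 10.1 FPKM) had 0 of 3 and 0 of 2 tested called. The B and plasma cell list, at 0.743 to 1.69 against 1.35 to 2.19 FPKM, had 0 tested genes. In none of the 9 marker lists was a gene at 0 in all 10 libraries.

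The wider pathway was described with 7 lists, which hold 87 tested genes. Of these, 16 were lower and 2 were higher at an adjusted p under 0.05 (limma), with a median log2 fold change of -0.18 against -0.04 over all tested genes. The share lower was 18.4%, beside the 9.65% of all tested genes given above, where 7.13% were higher. The same shares over all tested genes belong beside the counts of each single list below. The lists were chosen with earlier results of these data known, so their share is a description only. The number lower ranged from 6 (without control 2 or labelled knockdown 2, 3 or 5) to 26 (without labelled knockdown 4) when 1 library was left out, was 8 when the trend with transcript length was removed, and was 6 with no filter on low genes. Those 6 were Smad2, Smad4, Zfyve9, Bmpr1a, Vcl and Axl. Of the 2 genes called higher above, Inhba passed with no filter and Chrd did not (adjusted p = 0.0976). With no filter, 1 gene in the list of YAP and SRF targets was called higher too.

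Of 13 tested Smads, cofactors and feedback genes, 4 were lower and 0 higher, and the median log2 fold change was -0.18. Smad2, the partner of Smad3 in carrying the signal, was at 2.25 to 3.13 FPKM in control libraries and at 1.27 to 2.06 FPKM in labelled knockdown libraries, without overlap. Its mean fell from 2.69 ± 0.318 to 1.60 ± 0.335 FPKM (limma log2 fold change -0.51, SE 0.10, adjusted p = 0.0108). Smad4, the shared partner that both need, fell from 9.61 ± 0.770 to 6.84 ± 0.995 FPKM (limma log2 fold change -0.44, SE 0.09, adjusted p = 0.0147), and labelled knockdown 4, at 8.49 FPKM, overlapped control 5, at 8.34 FPKM. The Smad2 and Smad4 calls held in 10 of 10 fits without 1 library and under 7 of 7 other settings.

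Zfyve9, which holds Smad2 and Smad3 near the receptor, went from 3.03 ± 0.271 to 2.29 ± 0.167 FPKM (limma adjusted p = 0.0226). Smurf2, a ubiquitin ligase that works with Smad7 against the receptors, went from 7.10 ± 0.475 to 5.73 ± 0.518 FPKM (0.0351). The groups did not overlap for either gene, but both calls were lost with the length trend removed (adjusted p = 0.113 and 0.136). Both were also lost with replicate number as a block in the fit, and that of Smurf2 with no filter on low genes. Without 1 library, the Zfyve9 call was lost only without control 3 (0.0589), and the Smurf2 call held in 4 of 10 fits, those without control 4 or 5 or labelled knockdown 1 or 4. Of the corepressors, Ski, Skil and Tgif1 had log2 fold changes of -0.02, -0.13 and -0.0032 and were not called.

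Among proteins that hold or release the latent ligand, 2 of 10 tested were lower and 0 higher. The median log2 fold change was -0.28, with 10 of 10 below 0, against 55.6% of all tested genes. Thbs1, a matrix glycoprotein that can release active TGF-beta, was at 2.31 to 6.03 FPKM in control libraries and 0.945 to 2.49 FPKM in labelled knockdown libraries (limma log2 fold change -0.81, SE 0.21, adjusted p = 0.0264). Fbn1, the microfibril protein to which latent complexes attach, went from 0.810 ± 0.192 to 0.408 ± 0.198 FPKM (limma adjusted p = 0.0424). They passed in 5 and 2 of the 10 fits that leave 1 library out, both of them without control 4 and without labelled knockdown 4, with adjusted p of up to 0.0584 and 0.0974. Fbn1 was also lost with the length trend removed (adjusted p = 0.0717) and with replicate number as a block. The latent TGF-beta binding proteins Ltbp1, Ltbp2, Ltbp3 and Ltbp4 were measured, and none was called (adjusted p of 0.170, 0.230, 0.542 and 0.0896). Of the integrins that activate the ligand, Itgav had an adjusted p of 0.0730 and Itgb6 and Itgb8 were too low to test.

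Of 7 tested coreceptors and extracellular modulators, 1 was lower and 0 higher (median log2 fold change -0.11). This was Acvrl1, a type I receptor of endothelial cells, from 1.496 ± 0.193 to 1.04 ± 0.187 FPKM (limma adjusted p = 0.0392), a call that held only without control 5 or labelled knockdown 4, with adjusted p of up to 0.0943 when another library was left out. It was also lost with the length trend removed (0.0725), with no filter on low genes and with replicate number as a block. Bgn, a proteoglycan that binds TGF-beta, stood at 28.7 ± 3.31 and 20.3 ± 5.71 FPKM (limma adjusted p = 0.0541). Dcn, a related proteoglycan, and Eng, an endothelial coreceptor, had log2 fold changes of -0.09 and -0.01.

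Of 19 tested further targets of TGF-beta, 3 were lower and 0 higher, and the median log2 fold change was -0.29. Junb, a transcription factor of the AP-1 family, went from 43.7 ± 11.2 to 23.9 ± 7.21 FPKM (limma log2 fold change -0.85, adjusted p = 0.0338). Fn1, fibronectin, went from 95.5 ± 7.85 to 76.4 ± 9.03 FPKM (-0.32, 0.0422), and Col1a1, a chain of type I collagen, from 14.6 ± 3.26 to 8.20 ± 3.73 FPKM (-0.83, 0.0499). Col1a1 is also among the stellate cell markers above. Each of these 3 calls held without control 5 and without labelled knockdown 4, and was lost without any other single library, with adjusted p of up to 0.0784, 0.0909 and 0.112, and those of Fn1 and Col1a1 were lost with the length trend removed (adjusted p = 0.205 and 0.0731). Fn1 was lost as well with median-of-ratios scaling (adjusted p = 0.0861), and Col1a1 with a pseudocount of 0.1 (0.0537) or without the mean-variance trend (0.0506). Under the 7 other settings, the calls of Fn1 and Col1a1 each held in 3 and that of Junb in 6. Klf10, known as an early target, had a log2 fold change of 0.22 (adjusted p = 0.469). Acta2, the actin of myofibroblasts, had a log2 fold change of -0.17 (0.496).

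**Figure D4:**
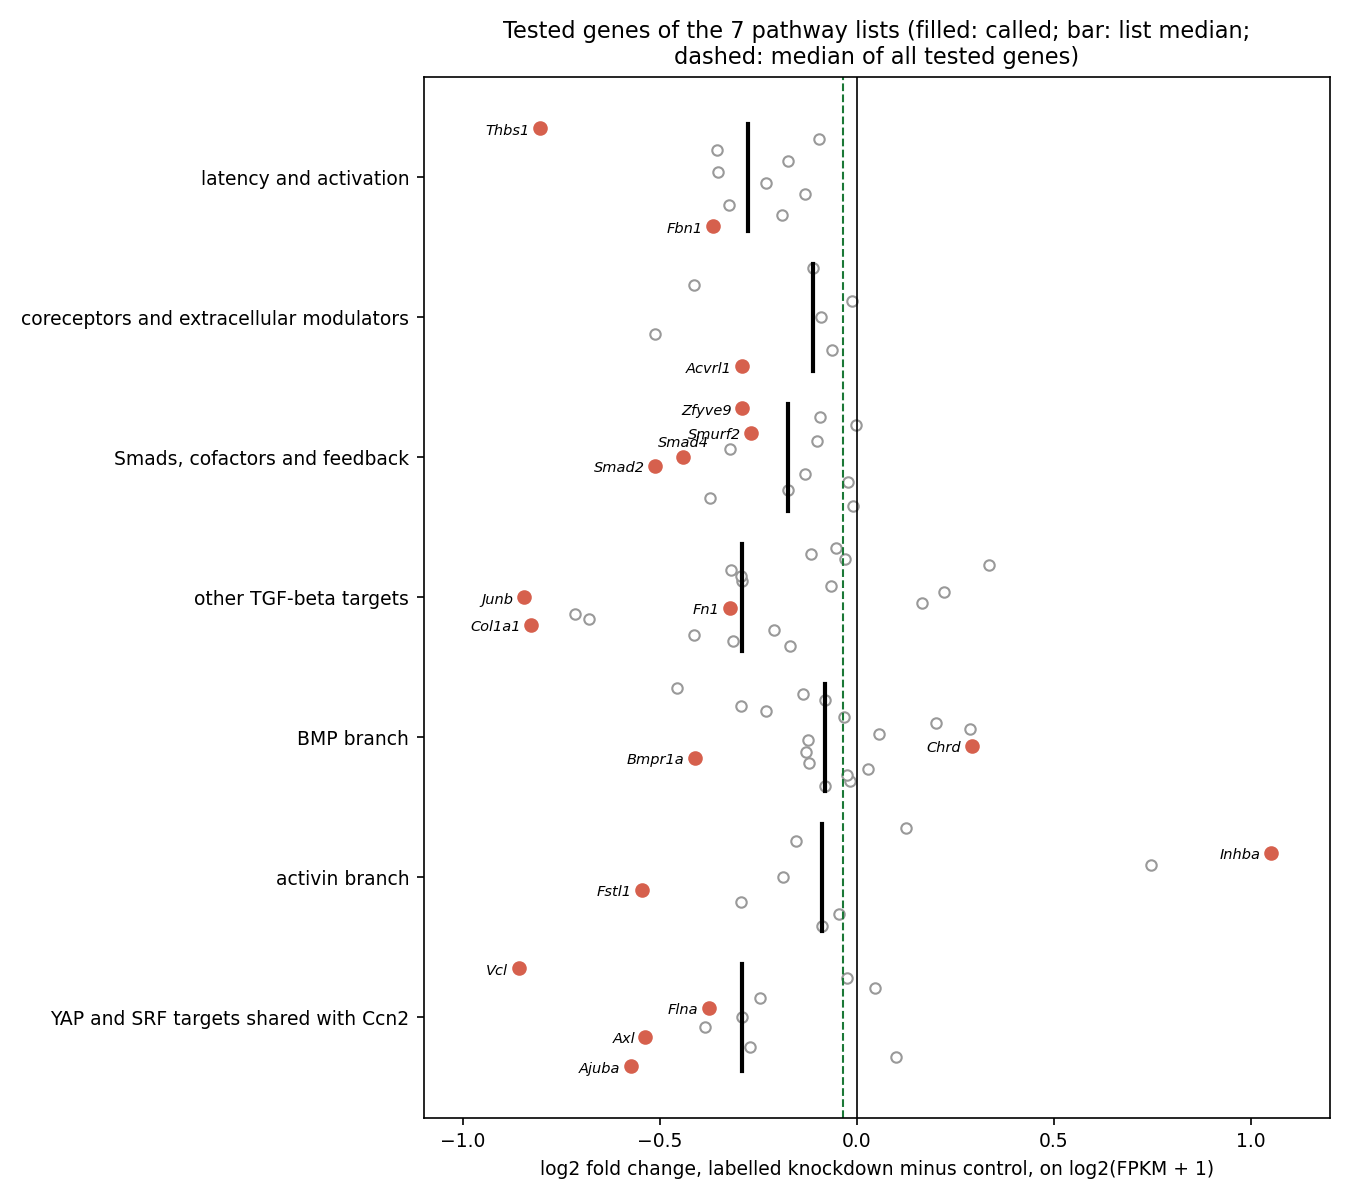
Log2 fold change (horizontal axis, labelled knockdown minus control, on log2(FPKM + 1)) of each tested gene in 7 pathway lists, from 5 libraries a group. Filled, named points are called, bars are list medians, and the dashed line is the median of all tested genes. Inhba, at 1.05, and Chrd, at 0.29, are the called genes above 0.

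In the main fit, the sister branches of the family held the list genes called higher. Inhba, which encodes the subunit of activin A, was at 2.47, 1.999, 1.47, 1.31 and 1.03 FPKM in control libraries 1 to 5 and at 5.42, 3.04, 3.46, 4.25 and 6.62 FPKM in labelled knockdown libraries 1 to 5. Every labelled knockdown library lay above every control library. The Inhba mean rose from 1.66 ± 0.574 to 4.56 ± 1.47 FPKM (limma log2 fold change 1.05, SE 0.19, adjusted p = 0.00947), and the call held in 10 of 10 fits without 1 library. Labelled knockdown 5, the lowest library of its group for 8 of the 9 pathway genes, was the highest for Inhba. Fstl1, a secreted glycoprotein of the follistatin-like group, fell from 3.94 ± 0.750 to 2.42 ± 0.748 FPKM (limma adjusted p = 0.0333), and it passed in 5 of the 10 fits that leave 1 library out, with adjusted p of up to 0.0784. In all, 1 of 9 tested activin genes was higher and 1 lower.

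Of 18 tested genes of the bone morphogenetic protein (BMP) branch, 1 was lower and 1 higher (median log2 fold change -0.08). Bmpr1a, a type I receptor for BMPs, was at 6.00 to 6.49 FPKM in control libraries and at 3.44 to 5.08 FPKM in labelled knockdown libraries (limma log2 fold change -0.41, SE 0.08, adjusted p = 0.0132), and it passed in all 10 fits that leave 1 library out. Chrd, a secreted BMP antagonist, rose from 1.26 ± 0.180 to 1.77 ± 0.274 FPKM (limma adjusted p = 0.0437). With 1 library left out, Chrd passed only in the absence of labelled knockdown 4, and its adjusted p reached 0.105. The Chrd call was also lost with replicate number as a block. The BMP targets Id1, Id2 and Id3 had log2 fold changes of -0.03, -0.23 and -0.29, and none was called. Hamp, the BMP-controlled hepcidin gene, averaged 883 and 1173 FPKM (log2 fold change 0.29, adjusted p = 0.623).

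Ccn2 is also a target of YAP and SRF, regulators that respond to tension in the cytoskeleton. Of 11 other tested genes known from these programmes, 4 were lower and 0 higher, and the median log2 fold change was -0.29, while Ccn2 was at 0.12. Vcl, the focal adhesion protein vinculin, was at 2.89 to 3.92 FPKM in control libraries and 1.01 to 1.86 FPKM in labelled knockdown libraries (limma log2 fold change -0.86, SE 0.11, adjusted p = 0.00518). Axl, a receptor tyrosine kinase, went from 11.5 ± 1.14 to 7.70 ± 1.58 FPKM (limma adjusted p = 0.0187). Both calls held in 10 of 10 fits without 1 library, and those of Ajuba (adjusted p = 0.0361) and Flna (0.0402) in 2 each, without labelled knockdown 4 and without labelled knockdown 1 for Ajuba or control 5 for Flna, with adjusted p of up to 0.0827 and 0.0825. Ajuba and Flna were also lost with the length trend removed (adjusted p = 0.0526 and 0.0764), and Ajuba with replicate number as a block. Ankrd1 and Amotl2, often used as readouts of YAP, had log2 fold changes of -0.27 (adjusted p = 0.516) and 0.10 (0.598).

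The genes most like 3 of the pathway genes were listed by Pearson correlation of log2(FPKM + 1) over the 10 libraries after each group's mean was subtracted. This is a description over libraries that share their diet and groups, and no test was made. For Tgfb1 they were Rasa3 (r = 0.99), Fam219a (0.96) and Asah1 (0.96), of which Asah1, the lysosomal acid ceramidase, was itself called lower (15.9 ± 1.62 to 10.4 ± 2.42 FPKM, limma adjusted p = 0.0191). For Ccn2 they were Anxa6 (0.96), Unc5b (0.96) and Id2 (0.96), and without subtraction of group means these values were 0.62, 0.46 and 0.74. For Tgfbi they were Pgam1-ps2 (0.98), Prex1 (0.97) and Osbpl2 (0.95).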

How the data were processed

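Poly(A) RNA from liver was made into strand-marked libraries, per the labels' protocols. The submitters' processing notes list StringTie 1.3.4d, HISAT2 2.0.4 and cutadapt 1.9, and name a human build, while the identifiers are mouse Ensembl genes, so the authors' build and annotation are not known. The authors deposited FPKM per library, the fold ratio of group means, its log2 value, and p-values and q-values from a test that no label or header names. No counts were in the table, so depth is unknown and precision rests on the spread between libraries.

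Groups and replicate numbers came from sample titles. Values were taken as log2(FPKM + 1) and compared with limma 3.58.1 in R 4.3.3, across all 13471 genes with at least 0.5 FPKM in at least 5 libraries, with a mean-variance trend, no covariates, and Benjamini-Hochberg adjustment over all tested genes, called at 0.05. This scale understates the change of low genes. The fit was also run on simulated data, with independent noise in each library and 200 genes changed by a known fold. Such data do not check the calls made here. Exact two-sided permutation tests went through every assignment of 5 libraries out of 10. Transcript lengths were the longest per gene in GENCODE M21, found for 97.9% of tested genes. From each list were named the called genes, at most 4 by p, and in lists with 0 or 1 call the 2 genes of lowest p. Other list genes named beside them, such as Klf10, Ankrd1 and the Ltbp genes, were picked after their values were seen. The pathway genes, lists and tests were chosen with earlier results of these data known. Alternatives were 7 settings, each library left out in turn, and labelled knockdown 1 and 4 left out together, which was chosen after seeing the data. No batch that separates the libraries is given in the labels.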

Additional observations from a re-analysis of the deposited data

Results flagged for a closer look

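In 58 groups of 5 values, from the 9 pathway genes, Lgals3 and the 19 list genes named by rule, the gap between the most extreme library and the next was divided by the whole range on the log2(FPKM + 1) scale. It passed the 95% critical value of Dixon for 5 values in 5 groups, and chance gives about 1 in 20. Smad3 was at 2.38 FPKM in labelled knockdown 5, with the other 4 libraries of its group at 3.43 to 3.78 FPKM. Junb was at 23.99 FPKM in control 5, where the other controls held 45.4 to 50.9 FPKM. Thbs1 was at 6.03 FPKM in control 4, with the other controls at 2.31 to 3.06 FPKM. Control 2 was high for Acvrl1, at 1.83 FPKM against 1.33 to 1.46, and for Bmpr1a, at 6.49 FPKM against 6.00 to 6.12.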

How the results depend on the processing

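Settings other than the one reported were an FPKM minimum of 1, no filter, a pseudocount of 0.1, median-of-ratios scaling, removal of the length trend, limma without a trend, the replicate block, and the later removal of labelled knockdown 1 and 4. With no filter, the genes lower went from 1300 to 682, those higher from 960 to 511, the pathway genes lower from 2 to 0 (Tgfb1 -0.43, adjusted p = 0.0880, and Tgfbr2 -0.42, 0.0916) and the list genes lower from 16 to 6. That setting tests 29657 genes. With the length trend removed, 720 genes, 1 pathway gene (Tgfbr2 lost, -0.30) and 8 list genes were lower. Same-numbered libraries correlated at -0.01 to 0.11 over 5 pairs, and 1 of 5 controls matched best with its own number. No pairing by number was evident, which does not exclude one. With the replicate block, 1 pathway gene was lower (Tgfbr2 lost, -0.42, adjusted p = 0.0644) and 1 list gene higher. Without labelled knockdown 1 and 4, 626 genes were higher, 29 list genes lower and 1 higher, Tgfbi was past the threshold (-0.46, adjusted p = 0.0185) and Ccn2 was at -0.25. With single libraries left out, the genes lower ran from 533 to 1733, those higher from 440 to 954, the pathway genes lower from 0 to 3, and the list genes from 6 to 26 lower and from 1 to 2 higher. The log2 fold change then ran from -0.52 to -0.34 for Tgfb1, from -0.48 to -0.35 for Tgfbr2, from -0.39 to -0.22 for Tgfbi, from -0.029 to 0.24 for Ccn2 (-0.0074 without labelled knockdown 1) and from -0.093 to 0.26 for Lgals3 (-0.0096 without labelled knockdown 2). The cause of these changes was not tested beyond the number of genes or libraries that enter. The median of all genes moved by less than 0.1 under each setting. Read depth is not known, so no limit from counting error can be given for the low genes.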

Other observations

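After each group's mean was subtracted, Tgfb3 and Smad7 ran closest together of the tested pathway genes over the 10 libraries, with a Pearson r of 0.96 on the log2(FPKM + 1) scale, given as a description. Tgfbr1 ran against Ccn2 (r = -0.79) and Tgfbi (-0.78), where labelled knockdown 1 and 4 are its low libraries.

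A drop like that of Tgfbr1 was seen for Twsg1, which encodes a secreted modulator of BMPs and was picked after its values were seen. It stood at 0.218 FPKM in labelled knockdown 1, where the other 9 libraries held 4.61 to 9.997 FPKM. Adnp, a gene of chromatin regulation with no known place in this pathway, was at 0.064 and 0.012 FPKM in labelled knockdown 3 and 4 and at 5.63 to 11.4 FPKM in the other 8.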
